A study of Homo sapiens with 9 samples.

Results

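The transcripts described here belong to the RAS, RAF, MEK and ERK cascade, and were read in NCI-H1155, a line of human large cell lung cancer with a neuroendocrine character. The members are the 7 genes NRAS, HRAS, ARAF, BRAF, MAP2K1, MAP2K2 and MAPK3, taken by gene symbol from the 23369 genes of the table, and all 7 were found there. Other genes of the core cascade were not analysed here. Related genes such as MRAS, RALB, MAP2K4, MAP2K7 and MAPK7 were read in lists around it. The cells were exposed to 1 µM foretinib, 1 µM cabozantinib or the vehicle DMSO, starting 24 h after plating and lasting 4 h, with 3 libraries of biological replicates in each group. All groups share this line and its culture medium. The labels do not say whether the replicates were grown on separate days, so that p-values measure the spread between these libraries. The libraries are named by the numbers in their titles, which are 1, 2 and 4 for foretinib, 3, 4 and 5 for cabozantinib and 2, 4 and 5 for DMSO.

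The cascade carries growth signals from the cell surface to the nucleus. RAS proteins are small GTPases that are active while bound to GTP. Active RAS recruits the RAF kinases to the membrane, RAF phosphorylates the dual-specificity kinases MEK1 and MEK2, and these phosphorylate ERK, which acts on kinases and transcription factors. The cascade is run by phosphorylation, so that its output can change with no change in the transcripts of its parts. Foretinib and cabozantinib are related multi-kinase inhibitors known for blocking MET and KDR. Foretinib carries a fluorine on its central phenyl ring that cabozantinib lacks, and a morpholinopropoxy chain in the place of a methoxy group. MEK1 and MEK2 are reported protein targets of foretinib, and the comparisons ask whether the messages of the cascade differed after either compound.

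Values are read counts divided by the authors' size factor of each library, called normalised read counts, and errors are the SD over the 3 libraries of a group. Recovered totals ran from 26996023 to 34062153 reads per library. The labelled lineage was present, with 11 of 12 neuroendocrine markers tested and summed marker levels of 85634 to 94675 in foretinib, 86472 to 91672 in cabozantinib and 79093 to 89794 in DMSO. GRP was listed at 0 in all 9 libraries. Of the epithelial markers 4 of 5 were tested, KRT19 being listed at 0. CDH1 was at 0 in foretinib, 75.7 to 170.4 in cabozantinib and 0 to 84.2 in DMSO. EPCAM was at 0 to 259.3 in foretinib, 101.3 to 715.2 in cabozantinib and 4.16 to 317.2 in DMSO. KRT8 was at 763.3 or more and KRT18 at 1581 or more in every library. Fibroblast markers had 4 of 7 at 0 in all libraries, but COL1A2 was at 337.7 to 1194 in foretinib, 638.3 to 1028 in cabozantinib and 438.0 to 1052 in DMSO. Leukocyte markers had 4 of 6 at 0 (PTPRC among them), while CD68 was at 0.822 to 754.9 in foretinib, 174.4 to 271.1 in cabozantinib and 4.89 to 198.8 in DMSO. Endothelial markers had 3 of 4 at 0 and red cell markers 2 of 3. The foretinib libraries stood apart in their share of genes at 0. Of the 12642 genes tested (10 or more normalised reads in 3 libraries at the least), 16.26% to 21.02% were at 0 in a foretinib library, against 4.41% to 5.48% in a cabozantinib library and 5.3% to 10.87% in a DMSO library.

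NRAS, one of the RAS switches, had 3554, 5655 and 1878 normalised read counts in the foretinib libraries, 5044, 2774 and 1855 in the cabozantinib libraries and 3572, 3252 and 3842 in the DMSO libraries. The DMSO libraries lay close together, while those of each compound spread to both sides of them. Its level averaged 3696 ± 1893 in foretinib, 3224 ± 1642 in cabozantinib and 3555 ± 296 in DMSO. HRAS, the second RAS switch, had 3.29, 530.1 and 0 in foretinib, 346.7, 204.3 and 678.2 in cabozantinib and 499.1, 252.1 and 590.3 in DMSO. The first of these foretinib values stands for 4 reads, so that HRAS was at or near 0 in 2 of the foretinib libraries, whereas foretinib replicate 2 lay within the range of both other groups. HRAS was the member with the lowest mean in every group.

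ARAF and BRAF encode RAF kinases, of which BRAF has the stronger activity toward MEK. ARAF was the most abundant member by reads, at 3798, 6181 and 3988 in foretinib, 6541, 5225 and 4207 in cabozantinib and 6570, 4826 and 4547 in DMSO. These ranges overlapped throughout, and ARAF also had the smallest spread of any member in foretinib, with a coefficient of variation of 28.4%. BRAF had 531.2, 489.8 and 1888 in foretinib, 696.3, 1253 and 611.7 in cabozantinib and 800.2, 1472 and 1314 in DMSO. The highest and the lowest BRAF values of the 9 libraries were both in foretinib.

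MAP2K1 encodes MEK1, which phosphorylates ERK on a threonine and a tyrosine. Its values were 1.64, 232.4 and 550.0 in foretinib, 1150, 799.2 and 1034 in cabozantinib and 60.7, 862.9 and 1818 in DMSO. Every foretinib library lay below every cabozantinib library, but DMSO replicate 2 fell inside the foretinib range. The lowest foretinib value stands for 2 reads. MAP2K2, the gene of MEK2, had 2691, 84.5 and 2561 in foretinib, 1392, 995.6 and 1380 in cabozantinib and 1221, 1871 and 1184 in DMSO. Here foretinib replicates 1 and 4 were above all other libraries and foretinib replicate 2 was below them all.

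MAPK3 encodes ERK1, the kinase at the end of the chain. It had 328.1, 567.5 and 112.9 in foretinib, 882.0, 771.3 and 474.6 in cabozantinib and 1046, 735.3 and 819.3 in DMSO. All 3 foretinib libraries lay below all 3 DMSO libraries, and the foretinib and cabozantinib ranges overlapped. The means were 336.2 ± 227.4 in foretinib, 709.3 ± 210.7 in cabozantinib and 867.0 ± 160.9 in DMSO.

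**Figure D1:**
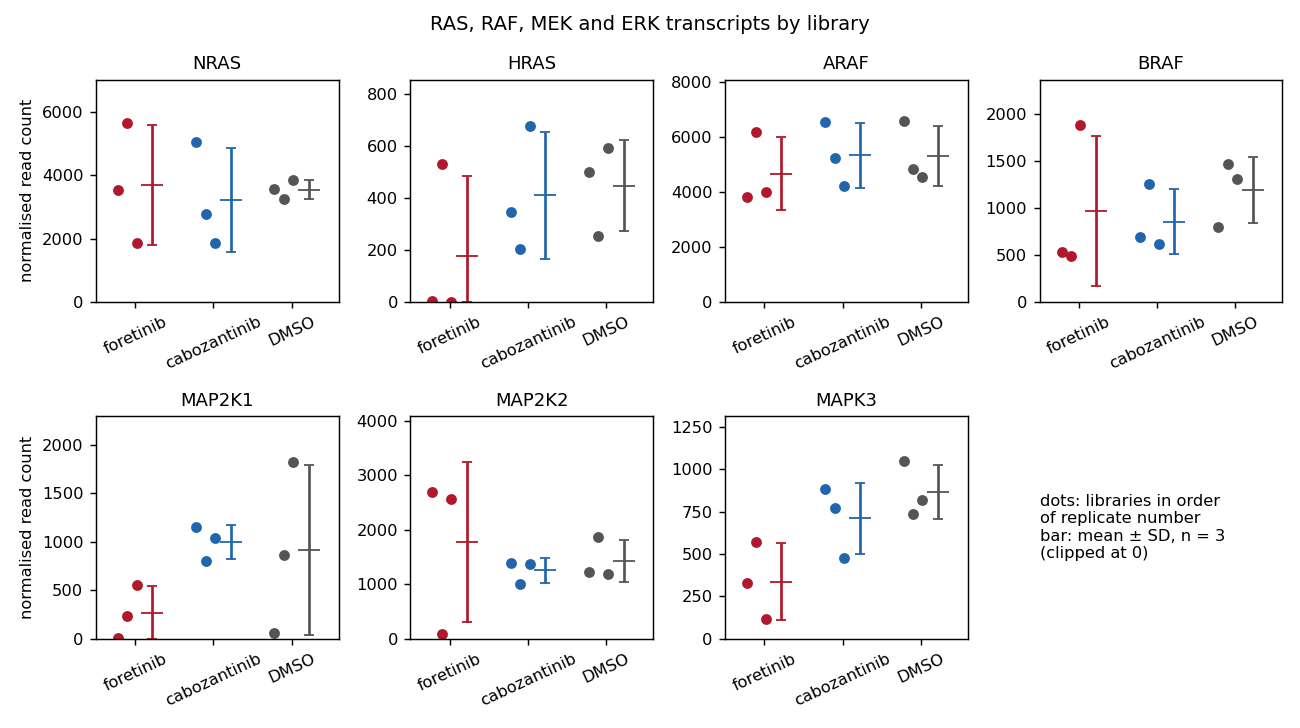
Normalised read counts (vertical axis, from 0) of the 7 members in each foretinib, cabozantinib and DMSO library, as dots in order of replicate number, next to the mean ± SD (n = 3, clipped at 0). The 3 MAPK3 dots in foretinib (112.9 to 567.5) lie below the 3 in DMSO (735.3 to 1046), while MAP2K2 in foretinib has 1 dot at 84.5 and the others at 2561 and 2691.

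The spread between replicates differed with the level and the group. In DMSO the coefficient of variation was 8.32% for NRAS, 20.6% for ARAF, 27.1% for MAP2K2 and 29.4% for BRAF, but 96.3% for MAP2K1, whose highest DMSO library held 29.9 times the lowest. In cabozantinib MAP2K1 and MAP2K2 were the steadiest members, at 18.0% and 17.9%, and NRAS reached 50.9%. In foretinib the coefficient was above that in DMSO for all 7 members, from 28.4% for ARAF to 172% for HRAS. Among all tested genes with a group mean of 300 to 1000 its median was 89.1% in foretinib, 40.3% in cabozantinib and 47.0% in DMSO, and at 1000 to 3000 it was 50.0%, 24.2% and 28.1%. Below a mean of 300, where HRAS and MAP2K1 lay in foretinib, 78.5% of the foretinib genes at 100 to 300 had at least 1 library at 0.

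Between genes, levels were set per kb of exon, using the GENCODE release 29 models of GRCh38 only for length, since the authors' annotation is not given in the sources used here. ARAF was the highest member in every group, at 1488 ± 423 normalised read counts per kb in foretinib, 1702 ± 374 in cabozantinib and 1698 ± 350 in DMSO. BRAF had the lowest level per kb of the 7, at 67.3 ± 55.2 in foretinib, 59.3 ± 24.2 in cabozantinib and 83.0 ± 24.4 in DMSO, over an exon length of 14.4 kb against 3.13 kb for ARAF. With the longest transcript as the length instead, BRAF stayed last in cabozantinib and DMSO and came just above MAP2K1 in foretinib (101 against 76.6 per kb). Both lengths come from the same models, where the longest BRAF transcript has 9578 bases. A shorter BRAF model in the authors' annotation would raise its level per kb and could change its rank.

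In DMSO the order per kb was ARAF, MAP2K2 (822 ± 223), NRAS (799 ± 66.4), HRAS (340 ± 133), MAPK3 (299 ± 55.6), MAP2K1 (261 ± 251) and BRAF. The libraries of MAP2K2 and NRAS overlapped, as did those of HRAS, MAPK3, MAP2K1 and BRAF taken as neighbours, whereas ARAF lay above MAP2K2 and NRAS above HRAS in every library. In cabozantinib NRAS (725 ± 369) and MAP2K2 (724 ± 130) overlapped, HRAS, MAP2K1 and MAPK3 overlapped as neighbours, and BRAF lay below MAPK3 in all libraries. In foretinib ARAF, MAP2K2 (1026 ± 847) and NRAS (831 ± 425) overlapped as neighbours and so did the other 4, with NRAS above HRAS in all libraries.

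**Figure D2:**
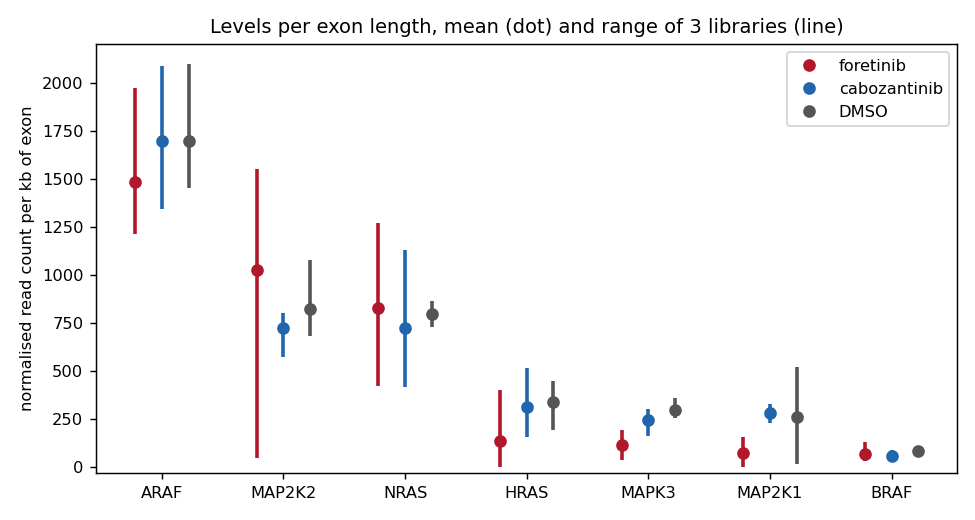
Normalised read count per kb of exon (vertical axis) for the 7 members in foretinib, cabozantinib and DMSO, with dots for the mean and lines from the lowest to the highest of 3 libraries. ARAF is the highest in each group, at 1488, 1702 and 1698 per kb, and the lines of HRAS, MAPK3 and MAP2K1 overlap one another within each group.

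Reads were also summed by step of the cascade, over the members of each step only. NRAS and HRAS together had 3873 ± 2171 normalised read counts in foretinib, 3634 ± 1538 in cabozantinib and 4002 ± 468 in DMSO. ARAF and BRAF summed to 5625 ± 1191 in foretinib, 6178 ± 1237 in cabozantinib and 6509 ± 777 in DMSO. MAP2K1 and MAP2K2 summed to 2693, 316.9 and 3111 in the foretinib libraries, 2542, 1795 and 2414 in the cabozantinib libraries and 1282, 2734 and 3001 in the DMSO libraries. The low MEK sum of foretinib replicate 2 came with the low MAP2K2 value, and that of DMSO replicate 2 with the low MAP2K1 value.

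The 7 members together summed to 11875 ± 1616 in foretinib, 12771 ± 2977 in cabozantinib and 13718 ± 424 in DMSO. Each of these sums is led by ARAF and NRAS. The MAP2K1 share of the MEK reads was 0.0611%, 73.3% and 17.7% in foretinib, 45.3%, 44.5% and 42.8% in cabozantinib and 4.74%, 31.6% and 60.6% in DMSO. It was thus nearly constant in cabozantinib and ran over most of the scale in the other groups. The HRAS share of the NRAS and HRAS sum was 2.89% ± 4.92 in foretinib, 13.4% ± 11.6 in cabozantinib and 10.9% ± 3.27 in DMSO. The BRAF share of the ARAF and BRAF sum was 17.2% ± 13.1, 13.9% ± 4.97 and 18.9% ± 6.96 in the same groups.

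**Figure D3:**
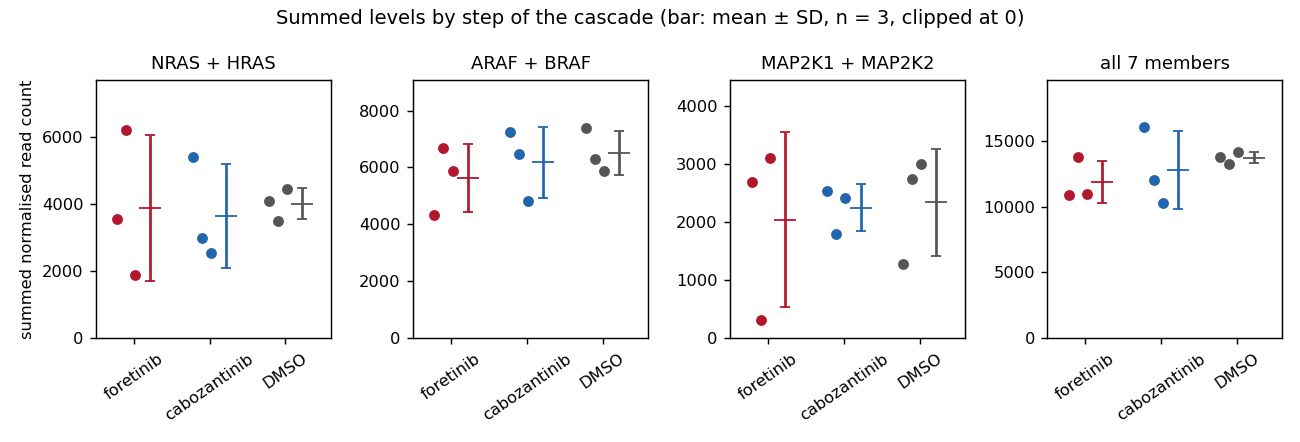
Summed normalised read counts (vertical axis, from 0) of the RAS, RAF and MEK members and of all 7 members in each foretinib, cabozantinib and DMSO library, shown as dots next to the mean ± SD (n = 3, clipped at 0). The DMSO sums of all 7 members lie between 13271 and 14114, inside the range of the cabozantinib sums (10240 to 16052).

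Foretinib was set against DMSO with limma on log2(value + 1), fitted over all 12642 genes, and a call needed a Benjamini-Hochberg adjusted p below 0.05 over all of them. None of the 7 members was called, against 0% of all genes, and the adjusted p-values of the members ran from 0.531 to 0.956. edgeR on whole reads called 0 genes in each comparison, and DESeq2 called 650 genes here, none of them a member. At an unadjusted p below 0.05 there were 0 members, against 9.07% of all genes. MAPK3 was the 1 member without overlap between the groups, 2.58-fold lower in foretinib, against 7.69% of all genes that lay lower without overlap and 3.99% that lay higher. Its log2 fold change was -1.63 (SE 0.87, 95% interval -3.51 to 0.25, limma adjusted p = 0.531), and -0.99 without foretinib replicate 4. HRAS had -5.00 (SE 2.33, 95% interval -10.02 to 0.01, limma adjusted p = 0.531), a size set by the 2 libraries at or near 0, while the ratio of the means was 0.398. Without foretinib replicate 4 the HRAS estimate was -3.14, and without foretinib replicate 2 it was -7.67.

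For MAP2K1 the estimate was -2.72 (95% interval -6.79 to 1.36), for MAP2K2 -0.73 (-2.92 to 1.46), for BRAF -0.55 (-2.01 to 0.91), for ARAF -0.21 (-0.80 to 0.38) and for NRAS -0.08 (-0.99 to 0.83). The intervals of ARAF and NRAS were the narrowest, and neither reached a doubling or a halving of the level. All 7 estimates were below 0, as were 63.8% of all tested genes, but the ratio of means was above 1 for NRAS (1.04) and MAP2K2 (1.25). NRAS and MAP2K2 also had estimates above 0 with edgeR and DESeq2 on whole reads. MAP2K1 was above 0 with the replicate block, at 0.46. That block gives foretinib replicate 1, whose number no other library has, no part in the estimate. MAP2K1 was -0.36 without foretinib replicate 1, -1.73 without DMSO replicate 5, -4.17 without DMSO replicate 2 and -4.21 without foretinib replicate 4. Without foretinib replicate 2 the MAP2K2 estimate was 0.91, and without foretinib replicate 4 that of NRAS was 0.34. The members' median of -0.73 stands beside -0.34 over all genes, a median that quantile normalisation moved to -0.04.

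The lower members lay where low genes as a whole were lower in foretinib. HRAS, MAP2K1 and MAPK3 had a mean of 300 to 1000 over the 9 libraries, and the 3771 tested genes at that level had a median log2 fold change of -1.06 for foretinib against DMSO. It was -0.08 for the 3474 genes at 1000 to 3000, the level of BRAF and MAP2K2, and 0.00 for the 1638 genes at 3000 to 10000, the level of NRAS and ARAF. The part that the zeros of the foretinib libraries had in these estimates was not tested. In such bulk samples less of a transcript per cell and fewer cells that hold it cannot be told apart.

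Cabozantinib against DMSO called 0 of the 7 members, against 0% of all genes, with adjusted p-values of 1.00 throughout, and 0 members had an unadjusted p below 0.05, against 1.31% of all genes. No member was without overlap, against 5.18% of all genes higher and 4.71% lower. The narrowest interval was again that of ARAF, at 0.00 (SE 0.27, 95% interval -0.59 to 0.59), with 5324 ± 1170 in cabozantinib and 5314 ± 1096 in DMSO. NRAS was at -0.26 (-1.17 to 0.65), BRAF at -0.51 (-1.97 to 0.95), MAPK3 at -0.32 (-2.20 to 1.56) and MAP2K2 at -0.17 (-2.36 to 2.02). MAP2K1, at 1.10 (-2.98 to 5.17), and HRAS, at -0.21 (-5.22 to 4.81), had the widest intervals. Of the 7 estimates 6 were below 0, against 46.7% of all genes, and the members' median was -0.21 beside 0.04 over all genes. The 6 include ARAF, whose estimate rounds to 0.00, and the ratio of means was below 1 for 5 members. Without DMSO replicate 2 the MAP2K1 estimate was -0.35. Single libraries also decided the signs of HRAS (0.21 without cabozantinib replicate 4 and 0.04 without DMSO replicate 5), MAP2K2 (0.05 without DMSO replicate 4) and NRAS (0.08 without cabozantinib replicate 5).

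**Figure D4:**
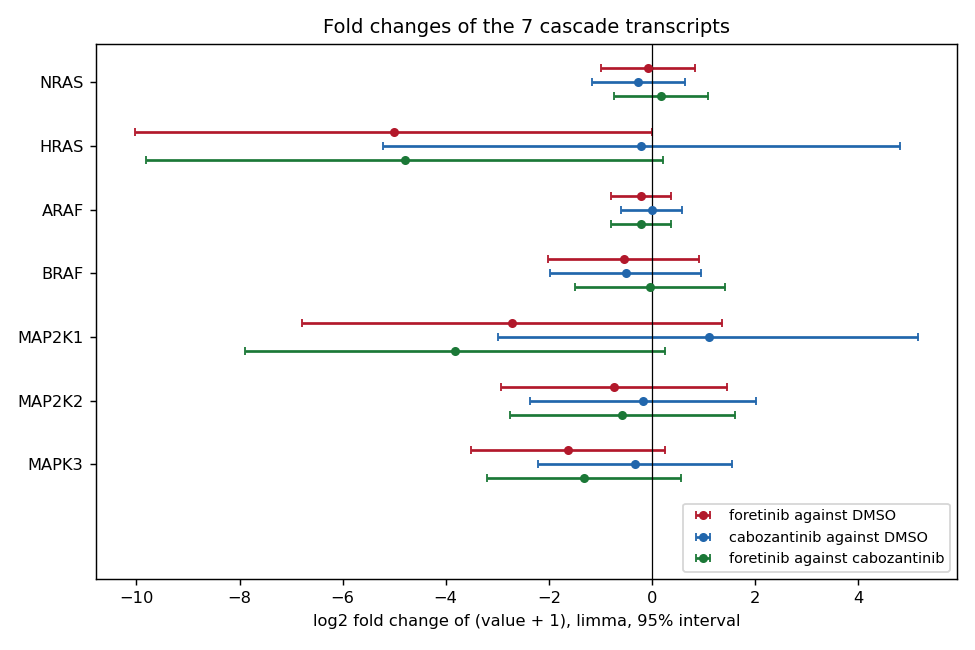
Log2 fold changes of value + 1 (horizontal axis) with 95% intervals from limma for the 7 members in the comparisons foretinib against DMSO, cabozantinib against DMSO and foretinib against cabozantinib. All 21 intervals include 0, and those of NRAS and ARAF are the narrowest.

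Foretinib and cabozantinib, the 1 pair of compounds at a matched dose and time, were compared directly in the same model. None of the 7 members was called, against 0% of all genes, with adjusted p-values from 0.513 to 0.985, and 0 members had an unadjusted p below 0.05, against 9.9% of all genes. MAP2K1 was without overlap, 3.81-fold lower in foretinib at 261.3 ± 275.3 against 994.5 ± 178.8 in cabozantinib, where 9.7% of all genes lay lower without overlap and 4.49% higher. Its log2 fold change was -3.82 (SE 1.89, 95% interval -7.89 to 0.26, limma adjusted p = 0.513), which was -1.46 without foretinib replicate 1 and 0.55 with the replicate block. The block gives foretinib replicate 1 and cabozantinib replicate 3 no part in the estimate. HRAS had -4.79 (-9.81 to 0.22) and MAPK3 -1.31 (-3.19 to 0.57). Without foretinib replicate 4 these were -2.93 and -0.67, and without foretinib replicate 2 HRAS was at -7.46.

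For the other members the difference between the compounds was 0.18 (-0.73 to 1.09) for NRAS, -0.21 (-0.79 to 0.38) for ARAF, -0.04 (-1.50 to 1.42) for BRAF and -0.57 (-2.76 to 1.62) for MAP2K2. Without foretinib replicate 2 these became -0.20 for NRAS, 0.30 for BRAF and 1.08 for MAP2K2. Leaving out foretinib replicate 1 gave 0.25 for BRAF, cabozantinib replicate 4 gave 0.27 for BRAF, and cabozantinib replicate 5 gave -0.16 for NRAS. Of all 7 estimates 6 were below 0, against 66.3% of all genes. The ratio of means was below 1 for 4 members, and above 1 for NRAS (1.15), BRAF (1.14) and MAP2K2 (1.42). The members' median was -0.57 beside -0.44 over all genes and -1.12 over the genes at the level of HRAS, MAP2K1 and MAPK3. No member's difference between the 2 compounds passed the test, and the intervals leave room for differences of more than 2-fold in all members except ARAF. Both comparisons with DMSO share its 3 libraries, and both with foretinib share the foretinib libraries, so they are not independent of each other.

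HRAS and MAPK3 followed each other most closely among the 21 pairs of members, with a Pearson's r of 0.88 over the 9 libraries. This is a description over libraries that share the groups, and MAP2K2 and NRAS had the lowest value, -0.56. HRAS was at 3.29 and 0 in foretinib replicates 1 and 4. The part of these low values in the r of HRAS and MAPK3 was not tested. Many other genes also had a high r with HRAS or MAPK3, as given below. HRAS and MAPK3 were chosen for display by their r alone, and shared control of them was not tested. The 250 bases before their RefSeq starts are shown 5′ to 3′ on the minus strand of GRCh38.p14. HRAS lies at chr11:535577-535826 and MAPK3 at chr16:30123221-30123470. Capitals mark the GC box GGGCGG or its reverse complement CCGCCC, the core letters of SP1 family sites, searched on both strands.
HRAS: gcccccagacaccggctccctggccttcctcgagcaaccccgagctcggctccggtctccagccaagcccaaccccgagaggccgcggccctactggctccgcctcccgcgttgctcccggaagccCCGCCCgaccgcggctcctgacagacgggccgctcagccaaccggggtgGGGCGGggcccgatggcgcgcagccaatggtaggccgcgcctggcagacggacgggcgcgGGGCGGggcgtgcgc
MAPK3: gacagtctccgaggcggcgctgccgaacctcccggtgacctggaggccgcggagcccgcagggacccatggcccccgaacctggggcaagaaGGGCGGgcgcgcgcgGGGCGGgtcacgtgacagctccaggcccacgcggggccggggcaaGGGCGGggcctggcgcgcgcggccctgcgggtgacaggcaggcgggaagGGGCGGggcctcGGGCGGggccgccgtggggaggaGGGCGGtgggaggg

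The HRAS stretch held 3 GC boxes and the MAPK3 stretch 6. In all 35116 RefSeq windows of the same length, 42.6% held at least 1 such match and 4.15% held 5 or more. Of the 7 members 5 had a window with a match, those of NRAS, MAP2K1 and MAP2K2 being the others. This counts genes, not windows. The 7 members have 9 windows, and MAP2K1 and MAP2K2 each have a second window with 0 matches. The members' windows differed in base composition, from 80.4% G and C for MAPK3 and 77.2% for HRAS to 53.2% for the lower of the 2 MAP2K1 windows, beside a median of 58.0% over all windows. The ETS core CCGGAA (reverse TTCCGG) was found before HRAS and ARAF and in 14.5% of all windows. The letters TATAAA (reverse TTTATA) were found before none of the 7, beside 10.7% of all windows. The ETS match of HRAS did not overlap its GC boxes. These are matches of letters only.

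The genes with the pattern most like each member were taken over the 9 libraries from those with a mean of 500 or more, by Pearson's r of log2(value + 1). They were E2F2 (0.927) and NSMCE4A (0.901) for NRAS, SH3BP5 (0.988) and ALG2 (0.978) for HRAS, and TNRC18 (0.962) and ELOVL7 (0.925) for ARAF. For BRAF they were DSTN (0.901) and HTRA2 (0.894), for MAP2K1 RPL34 (0.969) and LUZP1 (0.966), for MAP2K2 SBDSP1 and PRKAR2A (0.986 each), and for MAPK3 DOHH (0.961) and SHMT1 (0.957). The number of genes with an r over 0.8 was 564 for MAP2K2, 452 for MAPK3, 342 for MAP2K1, 292 for HRAS, 47 each for BRAF and NRAS and 24 for ARAF. On this scale single low libraries weigh heavily in r. Such were HRAS at 3.29 and 0 in foretinib replicates 1 and 4, MAP2K1 at 1.64 in foretinib replicate 1 and MAP2K2 at 84.5 in foretinib replicate 2. Their part in these values of r was not tested.

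Around the core cascade, 8 lists of 106 tested genes were read in the same fits, and none of their genes was called in any comparison. At an unadjusted p below 0.05 there were 9 of 106 for foretinib against DMSO (8.49%, beside the 9.07% of all genes), 1 for cabozantinib over DMSO (0.943%, beside 1.31%) and 7 for foretinib over cabozantinib (6.6%, beside 9.9%). These shares lie near or below those of all genes. Single genes are given below with their values as descriptions of the libraries. The list medians below stand beside all-gene medians of -0.34 for foretinib against DMSO, 0.04 for cabozantinib over DMSO and -0.44 for foretinib over cabozantinib. No list was sorted by level.

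Scaffolds, chaperones and regulators of RAF and MEK held the gene with the smallest p of all 8 lists. SHOC2, which with MRAS and a PP1 subunit removes an inhibitory phosphate from RAF, had 3647, 4669 and 3384 in foretinib, 2052, 1379 and 1779 in cabozantinib and 1101, 1386 and 678.4 in DMSO. The foretinib libraries lay above all others, and the cabozantinib and DMSO ranges overlapped by a narrow margin. SHOC2 was 3.70-fold higher in foretinib than in DMSO (log2 fold change 1.93, SE 0.39, 95% interval 1.09 to 2.78, unadjusted p = 0.000249, limma adjusted p = 0.358). Against cabozantinib it was 2.25-fold higher (1.17, 0.33 to 2.02, limma adjusted p = 0.393). DESeq2 on whole reads called SHOC2 in both comparisons with adjusted p-values of 1.47e-05 and 0.0321, while edgeR gave 0.360 and 0.599. Over the 20 alternatives its estimate against DMSO ran from 1.64 to 2.16.

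LAMTOR3, also called MP1, a scaffold that binds MEK1 and ERK1, had 1214, 3844 and 1904 in foretinib, 617.8, 1079 and 944.1 in cabozantinib and 898.3, 732.3 and 674.5 in DMSO. All foretinib libraries were above the 6 others (1.44, 95% interval 0.24 to 2.64, limma adjusted p = 0.497 against DMSO). Against DMSO the adjusted p was 0.0390 with DESeq2 and 0.605 with edgeR, and against cabozantinib it was 0.0981 with DESeq2. Without foretinib replicate 2 the LAMTOR3 estimate against DMSO was 0.99. PPP1CC, a PP1 catalytic subunit, was at 4546 ± 823 in cabozantinib and 3131 ± 441 in DMSO, higher without overlap (0.53, -0.02 to 1.08). PPP2R1A, the scaffold subunit of PP2A, was at 2703 ± 580 in cabozantinib and 4067 ± 491 in DMSO, lower without overlap (-0.60, -1.28 to 0.08, and -0.29 with the replicate block). In this list 2 of 24 tested genes were higher at an unadjusted p below 0.05 in foretinib against DMSO and 0 lower, and the list's median was 0.08. It was -0.01 for cabozantinib over DMSO and 0.06 for foretinib over cabozantinib.

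Adaptors and exchange factors that load RAS with GTP had a median of -1.08 for foretinib against DMSO, with all 13 tested genes below 0, beside a median of -0.34 and 63.8% below 0 over all genes. Over all genes with a mean of 300 to 1000 the median was -1.06, and at 100 to 300 it was -2.06. At 1000 to 3000, the level of FRS2 and CRKL below, it was -0.08. The 13 genes were not sorted by level. FRS2, the docking protein of FGF receptors, had 209.7, 2196 and 1354 in foretinib, 2856, 2862 and 1656 in cabozantinib and 2496, 3126 and 3004 in DMSO. Its foretinib libraries lay below all DMSO libraries and overlapped with cabozantinib (-1.74, 95% interval -3.20 to -0.29, limma adjusted p = 0.497 against DMSO). Without foretinib replicate 1 the FRS2 estimate was -0.73, and with the replicate block, which gives that library no part, it was -0.83. CRKL, an SH2 and SH3 adaptor, was at 1152 ± 819 in foretinib and 2228 ± 720 in cabozantinib (-1.13, -2.21 to -0.05, limma adjusted p = 0.490), and the estimate was -0.73 without foretinib replicate 2 and -0.28 with the replicate block. The list summed to 16285 ± 2366 in foretinib, 19802 ± 1614 in cabozantinib and 20062 ± 823 in DMSO, and its median was -0.14 for cabozantinib over DMSO.

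GTPase-activating proteins, which switch RAS off, had 9 tested genes with a median of -0.61 for foretinib against DMSO, 0.06 for cabozantinib over DMSO and -0.09 for foretinib over cabozantinib. RASA1, the p120 member, was at 499.7 ± 294.9 in foretinib, 1319 ± 557 in cabozantinib and 1094 ± 302 in DMSO, with no overlap between foretinib and either other group (-1.55, -3.10 to 0.00 against cabozantinib and -1.33, -2.88 to 0.22 against DMSO). Without foretinib replicate 2 these estimates were -0.91 and -0.69. RASAL1, a second gene of the list with an unadjusted p below 0.05 in foretinib against cabozantinib, was at 0 in all 3 foretinib libraries and at 82.6 ± 80.5 in cabozantinib, and the ranges overlapped. RAS lipid processing and trafficking genes had medians of -0.06, 0.06 and -0.12 in these comparisons over 9 tested genes. ZDHHC9, part of the enzyme that attaches palmitate to HRAS and NRAS, was at 3567 ± 1945 in foretinib and 1594 ± 709 in DMSO (1.15, 0.09 to 2.2, limma adjusted p = 0.528), and the ranges overlapped. The ZDHHC9 estimate was 0.73 without foretinib replicate 2 and 0.70 without DMSO replicate 2.

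RAS-related small GTPases had a median of -0.16 for foretinib against DMSO over 10 tested genes, 0.26 for cabozantinib over DMSO and -0.36 for foretinib over cabozantinib. RALB, a RAL GTPase activated downstream of RAS, was steady within groups, at 1552, 1620 and 1413 in foretinib, 918.8, 894.9 and 911.4 in cabozantinib and 622.2, 727.3 and 850.7 in DMSO. All foretinib libraries were above all cabozantinib libraries, which were above all DMSO libraries. RALB was 2.08-fold higher in foretinib than in DMSO (1.07, -0.03 to 2.16, limma adjusted p = 0.531). MRAS, the GTPase partner of SHOC2, was at 0 in all 3 foretinib libraries, at 137.4 ± 119 in cabozantinib and at 161.4 ± 75.2 in DMSO. It was the gene of this list with an unadjusted p below 0.05 in foretinib against DMSO (0.0133, limma adjusted p = 0.442). MRAS was lower there without overlap, as were 7.69% of all genes. Low genes as a whole were lower in foretinib, with a median of -2.06 against DMSO at a mean of 100 to 300. RASAL1 above and DUSP9 below were low genes too. The part of this general fall in the zeros of these 3 genes was not tested.

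ERK-activated kinases and ETS factors had medians of -0.27 for foretinib against DMSO, 0.24 for cabozantinib over DMSO and -0.29 for foretinib over cabozantinib over 13 tested genes, with 0 at an unadjusted p below 0.05. ERK feedback transcripts are those that ERK induces. The list held DUSP, SPRY and SPRED genes, which dampen the cascade, together with ETV genes, PHLDA1 and IER3. It summed to 21709 ± 4213 in foretinib, 21290 ± 280 in cabozantinib and 25054 ± 1933 in DMSO, and 0 of its 15 genes were called. Of the 15, 3 were lower without overlap in cabozantinib than in DMSO, beside 4.71% of all genes. In foretinib against DMSO it was 1, beside 7.69%, and 0 were higher without overlap in either comparison. DUSP6, 1 of the 3, was at 2075 ± 311 in cabozantinib and 3222 ± 352 in DMSO (-0.64, -1.45 to 0.17). In that list SPRED2, an inhibitor of RAF activation, was without overlap between 708.6 ± 227.6 in foretinib and 1834 ± 346 in DMSO. DUSP9, an ERK phosphatase, was at 0 in all 3 foretinib libraries and at 219.1 ± 202.3 in DMSO, with overlapping ranges (unadjusted p = 0.0461, limma adjusted p = 0.531). The list medians were -0.50 for foretinib against DMSO, -0.26 for cabozantinib over DMSO and -0.62 for foretinib over cabozantinib.

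Parallel MAP kinase modules had medians of -1.91, -0.16 and -1.04 in these comparisons over 13 tested genes, beside -0.34, 0.04 and -0.44 over all genes. For foretinib against DMSO the median was -1.06 over all genes with a mean of 300 to 1000, and -2.06 at 100 to 300. The 13 genes were not sorted by level. Their sum was 12776 ± 1626 in foretinib, 12391 ± 938 in cabozantinib and 12908 ± 1643 in DMSO. MAP2K7, which activates JNK, was the gene of the 8 lists with an unadjusted p below 0.05 in cabozantinib against DMSO. It had 1207, 896.0 and 1192 in foretinib, 421.2, 310.9 and 630.1 in cabozantinib and 1490, 1098 and 1130 in DMSO. The cabozantinib libraries lay below the 6 others (-1.49, 95% interval -2.79 to -0.20, limma adjusted p = 1.00 against DMSO), and foretinib was 2.42-fold higher than cabozantinib (1.32, 0.02 to 2.62, limma adjusted p = 0.500). MAPK7, the kinase ERK5, was at 2582 ± 987 in foretinib and 1254 ± 441 in DMSO (1.03, 0.10 to 1.96, limma adjusted p = 0.528). MAP2K4, a second JNK activator, was at 1169 ± 609 in foretinib and 2165.9 ± 541.7 in DMSO (-0.98, -1.94 to -0.02, limma adjusted p = 0.531).

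**Figure D5:**
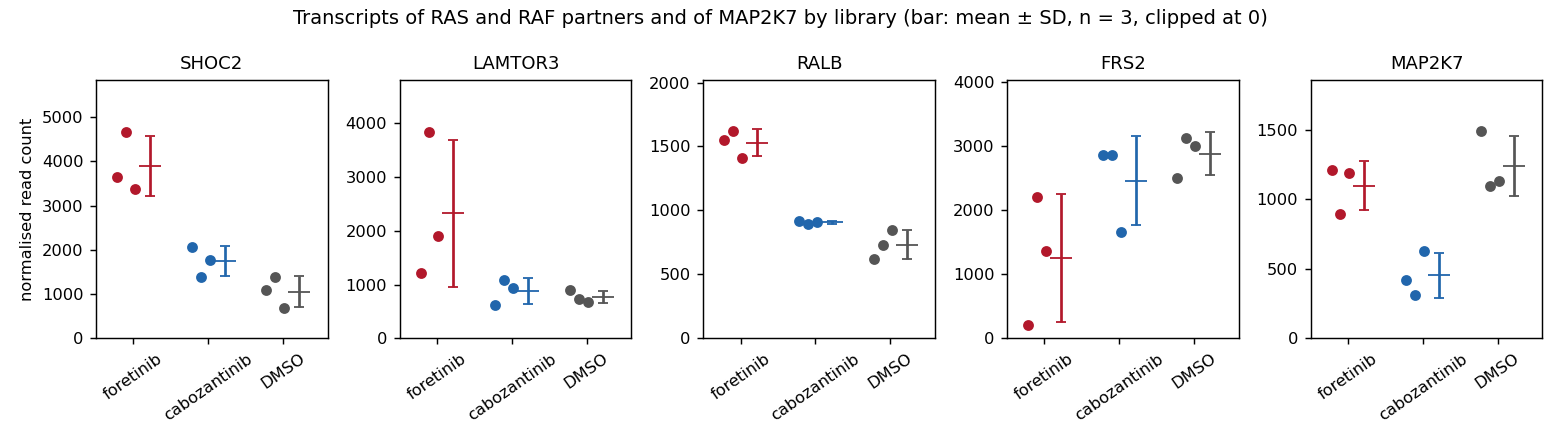
Normalised read counts (vertical axis, from 0) of SHOC2, LAMTOR3, RALB, FRS2 and MAP2K7 in each foretinib, cabozantinib and DMSO library, shown as dots next to the mean ± SD (n = 3, clipped at 0). SHOC2 lies between 3384 and 4669 in foretinib, above its other libraries, and MAP2K7 lies between 310.9 and 630.1 in cabozantinib, below its other libraries.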

How the data were processed

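The authors deposited 1 table of signal values, gene by gene, each a read count over a size factor that its whole library shares. HTSeq, DESeq2, Cufflinks 2.2.1, TopHat2 2.0.13 and the build hs37d5 are named in the submitters' processing notes. The role of each tool, the annotation, the strand setting and what combined means in the column names were not given in the sources used here. In every column 100% of the values came out as whole reads (to within 1e-06 of a read), which gave whole reads and library totals. Reads of genes with pseudogene copies, such as BRAF, ARAF and MAP2K1, may have been split or dropped, and reads from overlapping genes of the other strand cannot be told apart. Amplified copies were not removed by molecular tags, so that reads are not independent molecules.

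Values were tested as log2(value + 1) with limma 3.58.1 in R 4.3.3 (trend, all 9 libraries, no covariate, Benjamini-Hochberg over 12642 genes); fold changes are on that scale, so a library at 0 weighs heavily. Alternatives were pseudocounts of 10 and 100, no filter, a mean filter of 500, TMM scaling, quantile normalisation, edgeR 4.0.16 and DESeq2 1.42.0 on whole reads, only the 6 libraries compared, a replicate block, array weights and leaving out each library. The named genes were the 7 members and, of each list and comparison, the 3 genes with the smallest p. Of these the text gives those with a mean of 400 or more in both groups and an unadjusted p below 0.05, or one below 0.1 without overlap, a limit set after their values were seen, and MRAS, DUSP9 and RASAL1, which had an unadjusted p below 0.05 and were at 0 in foretinib. DUSP6, outside this limit, is given as a feedback gene lower without overlap in cabozantinib. The members and lists were chosen with earlier results of these data known. Promoter letters come from RefSeq windows on GRCh38.p14, where all 7 members matched; the files' own build is another, and no coordinate was converted.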

Additional observations from a re-analysis of the deposited data

How the results depend on the processing

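In 20 alternative settings 0 of the 7 members were called in any comparison. Of 417 recomputed member estimates 391 kept the sign and side of the threshold and 26 changed sign. No filter, the mean filter, only the 6 libraries compared and leaving out a library of the third group cannot move an estimate. Their estimates are counted among the 391, which is therefore no measure of stability. ARAF, at 0.00 for cabozantinib against DMSO, had no sign to lose, and its 20 estimates there were counted as kept. HRAS was not among the genes kept by the mean filter of 500. limma called 0 genes in each comparison and edgeR 0. DESeq2 called 650 genes between foretinib and DMSO, 47 between cabozantinib and DMSO and 618 between the compounds. Quantile normalisation called 1 gene, EGR1, between foretinib and DMSO. The cause of these differences was not tested. edgeR and DESeq2 gave 0.03 and 0.06 for NRAS and 0.28 and 0.31 for MAP2K2 in foretinib against DMSO, and 0.14 and 0.18 for BRAF and 0.45 and 0.50 for MAP2K2 in foretinib against cabozantinib.

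The labels do not say that equal title numbers mark shared cultures, and the deviations of same-numbered libraries correlated at -0.002 to 0.029. Foretinib replicate 1 and cabozantinib replicate 3 share their numbers with no other library. The replicate block therefore gives them no part in any estimate, and its estimates differ from the main ones also by leaving these libraries out. With the replicate block the estimates were 0.46 for MAP2K1 in foretinib against DMSO, -0.10 for MAP2K1 and 1.01 for HRAS in cabozantinib against DMSO, and 0.55 for MAP2K1 and 0.53 for BRAF in foretinib against cabozantinib, and 0 genes were called in each.

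Leaving out each library in turn gave, for foretinib against DMSO, -0.46 to 0.34 for NRAS, -4.21 to -0.36 for MAP2K1 and -1.57 to 0.91 for MAP2K2. For cabozantinib against DMSO it gave -0.64 to 0.08 for NRAS, -0.66 to 0.21 for HRAS, -0.35 to 2.09 for MAP2K1 and -0.28 to 0.05 for MAP2K2. For foretinib against cabozantinib it gave -0.20 to 0.60 for NRAS, -0.67 to 0.30 for BRAF, -5.31 to -1.46 for MAP2K1 and -1.41 to 1.08 for MAP2K2. MAPK3 stayed below 0 in foretinib against DMSO in all 20 settings, at -2.15 to -0.99, and so did HRAS in the 19 that tested it, at -7.67 to -1.32. Some of these settings could not move the estimates, as given above.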
